A study of Arabidopsis thaliana with 2 samples.

Results

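The genes described here belong to 2 families of plant cell wall genes, the TBL genes (TRICHOME BIREFRINGENCE-LIKE) and the XTH genes (xyloglucan endotransglucosylase/hydrolase). A gene was a member where the array's annotation gives a probe set to it alone and its symbol is TBL or XTH followed by a number, with the brightest probe set kept where a locus has several. This gave 31 genes, 22 TBL and 9 XTH, of 13333 loci that have a single-gene probe set. RefSeq lists 45 TBL and 33 XTH genes by symbol or synonym, and those without such a probe set were not analysed here, among them TBL29 (ESK1), TBL27 (AXY4) and the touch gene XTH22 (TCH4). The families were chosen by their median differences on these same 2 arrays, which stood above that of all loci, so every value below is a description and none is a test.

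RNA was taken from whole Col-0 seedlings of Arabidopsis thaliana after 7 days of growth on MS medium with sucrose and without treatment, and each genotype was hybridised to 1 Affymetrix array. The triple expressor carries the proteins labelled AD-HIFCOOD, GBD-pVHL and PHD3. The double expressor carries AD-HIFCOOD and GBD-pVHL without PHD3, so both genotypes share those fusions and no plant without transgenes was arrayed. PHD3 is an animal prolyl hydroxylase that needs oxygen, HIF is the transcription factor it modifies, and pVHL binds the modified form. Seedlings were genotyped one at a time by PCR, and no source used here gives the promoters of the transgenes, the number of lines or the number of seedlings per array. Since each genotype has 1 array, spread between replicates is unknown and nothing can be tested, and each difference compares these 2 arrays only. The number of arrays limits the precision.

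Hemicelluloses are the polysaccharides that bind to and space the cellulose fibres of the wall. TBL proteins mostly sit in the Golgi, and those with a known activity mostly add acetyl groups to the sugars of xylan, mannan, xyloglucan or pectin, which changes how these polymers fold and pack. XTH enzymes work outside the cell, where they cut xyloglucan and either rejoin the cut chain to another or release it, and they are best known from growing tissue and from roots. Both families thus include enzymes that act on hemicelluloses, TBL proteins before secretion and XTH enzymes after it. The TBL genes placed in a substrate group here act on xylan or mannan. TBL22 and TBL27, which act on xyloglucan, were not analysed here.

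Values are RMA expression values on the log2 scale, and differences were taken as triple minus double expressor. Most genes of both families were a little higher in seedlings with PHD3. Of 22 TBL genes, 16 were higher and 6 lower, against 47.9% of all loci higher and 50.2% lower. Of 9 XTH genes, 7 were higher, 1 was lower and 1 had the same value on both arrays. The median difference was 0.16 for TBL genes and 0.16 for XTH genes, a fold of 1.11 and 1.12, against a median of -0.0034 over all loci. Together 23 of the 31 genes were higher, with a median of 0.16.

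The shifts were small beside the size at which single genes can be told apart. Among 145 loci with more than 1 single-gene probe set, the SD of the difference per probe set was 0.20, which holds the disagreement of probes on the same RNA and none of the variation between plants. Over the 60 of these loci whose probe sets both reached 5.71 on their brighter array, the SD was 0.17. The SD of 0.20 was used for all members, bright or dim. Differences larger than the SD of 0.20 were seen for 11 of 22 TBL genes and 4 of 9 XTH genes, against 31.9% of all loci. Beyond 2 SDs lay 4 TBL genes and 0 XTH genes, against 6.91% of all loci. A difference of at least 0.32 on the log2 scale, which is 25% higher or 20% lower, was seen upward for 5 members (6.83% of all loci) and downward for 1 (6.49% of all loci). The 5 were TBL32, TBL36, TBL38, XTH16 and XTH21, and the lower gene was TBL26, together 6 of 31 against 13.3% of all loci in either direction. XTH21 lay below a floor of 5.71, the 40th percentile of all values. With 32 added to the unlogged values, which damps dim probe sets, XTH16 was at 0.31 and XTH21 at 0.14, so no XTH gene then passed and TBL32, TBL36, TBL38 and TBL26 did, 4 of 31 against 4.31% of all loci. At 1.5-fold there remained TBL32 among the higher genes (1.18% of all loci) and TBL26 among the lower (0.525% of all loci), and no member reached 2-fold (0.105% of all loci higher, 0.045% lower).

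**Figure D1:**
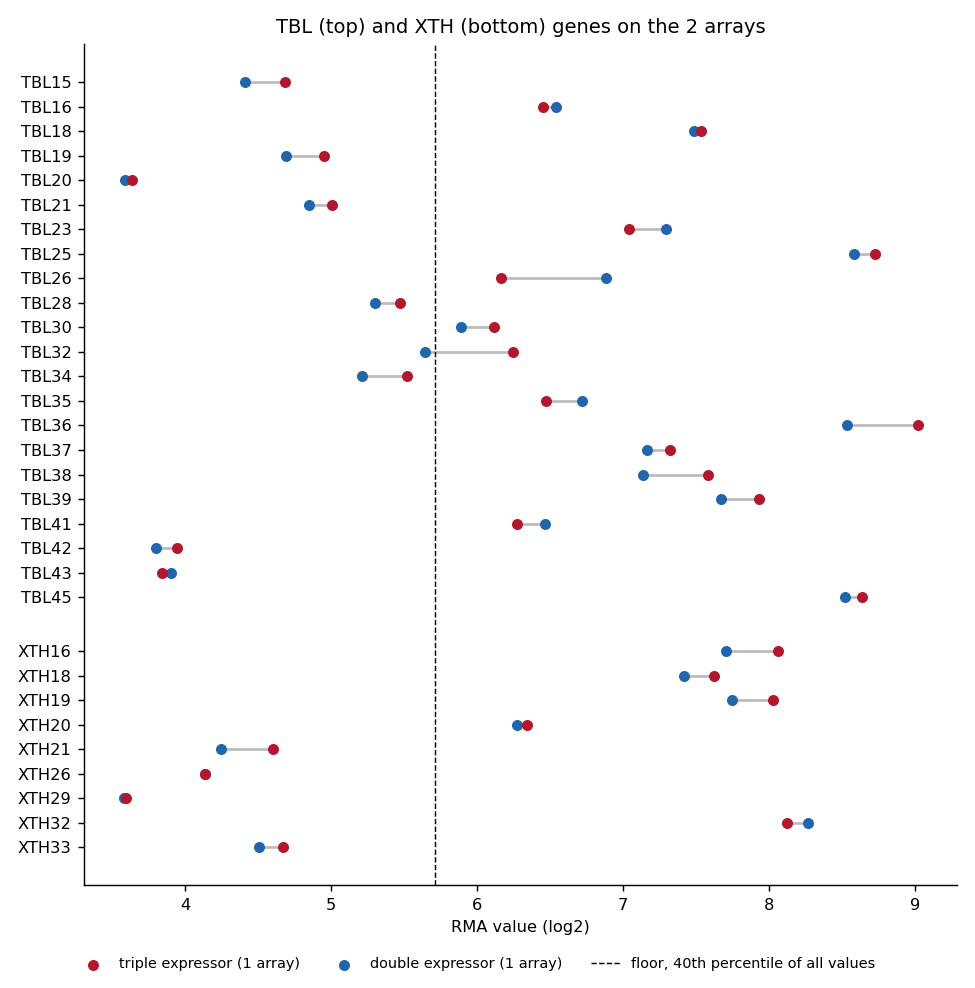
RMA value (log2, horizontal axis) of each TBL and XTH gene on the triple expressor array (red) and the double expressor array (blue), joined by a grey line; the dashed line is the floor of 5.71. The red point lies to the right of the blue for 16 of 22 TBL genes and 7 of 9 XTH genes, and TBL26 has the longest line, running the other way.

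The 5 measured genes of the group that acetylates xylan, the main hemicellulose of woody walls, were TBL28, TBL30, TBL32, TBL34 and TBL35. TBL32, which acetylates xylose residues that carry glucuronic acid, read 6.25 in the triple and 5.64 in the double expressor, a 1.52-fold higher level. That is the highest difference among the 31 members, and it comes from a probe set whose name marks probes shared by more than 1 transcript, the only such probe set among them. A signal from a second transcript in it was not tested. TBL34 read 5.52 in the triple and 5.21 in the double expressor, a difference of 0.31. TBL30 stood at 6.11 in the triple and 5.89 in the double expressor. Its neighbour TBL28 stood at 5.47 in the triple and 5.30 in the double expressor, so both were higher by less than TBL34. TBL35, which works with TBL34 on xylan, went the other way, with 6.47 in the triple against 6.72 in the double expressor. In all, 4 of these 5 genes were higher, and their median difference was 0.23.

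The mannan acetyltransferases were the TBL group with a negative median. TBL26 read 6.16 in the triple expressor, against 6.88 in the double expressor, a difference of -0.72 that made the triple 1.65-fold lower. TBL23 read 7.04 in the triple and 7.30 in the double expressor, or -0.26. TBL25 did not share that direction, at 8.72 in the triple and 8.58 in the double expressor. The median of these 3 genes was -0.26, and TBL24, the remaining gene of the group, was not analysed here. Only TBL26 lay beyond 2 probe set SDs, so the direction of the other genes of this group rests on differences of up to 1.27 SDs.

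The other 14 TBL genes were placed in no substrate group. Of these, 11 were higher and 3 lower. Their median difference was 0.16, and they ran from -0.19 to 0.48. TBL36 read 9.02 in the triple and 8.53 in the double expressor, 1.40-fold higher. TBL38, known from seed coat mucilage as an enzyme that removes acetyl groups from pectin rather than adding them, read 7.58 in the triple and 7.13 in the double expressor, 1.36-fold higher. These 2 genes were the only ones of the 14 beyond 2 probe set SDs.

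Smaller differences made up the rest of that group. TBL39 was higher by 0.26, at 7.93 in the triple and 7.67 in the double expressor, and TBL15 by 0.28, at 4.68 in the triple and 4.41 in the double expressor. TBL37, a gene induced by jasmonate, was higher by 0.16, at 7.32 in the triple and 7.16 in the double expressor. TBL37, TBL21 (0.16), TBL45 (0.11), TBL42 (0.15), TBL18 (0.04) and TBL20 (0.05) were within 1 SD of no difference. So were the lower genes TBL41 (-0.19), TBL16 (-0.08) and TBL43 (-0.06). TBL19 read 4.95 in the triple and 4.69 in the double expressor, and its neighbour TBL21 read 5.01 in the triple and 4.84 in the double expressor.

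XTH genes are commonly put in 3 groups by sequence, and the measured ones belong to groups II and III. In group II, 5 of 6 genes were higher and 0 lower, with a median of 0.24. XTH16 read 8.06 in the triple and 7.71 in the double expressor, 1.28-fold higher. XTH21, a gene of root growth, had the same fold of 1.28 from lower readings, 4.60 in the triple and 4.24 in the double expressor. XTH18 and XTH19, root genes that lie side by side on chromosome 4, were higher by 0.21 and 0.27. XTH18 read 7.62 in the triple and 7.42 in the double expressor, and XTH19 read 8.02 in the triple and 7.75 in the double expressor. XTH20, which is expressed in roots and in healing stems, differed by 0.06, at 6.34 in the triple and 6.27 in the double expressor. XTH26, known from root hairs, read 4.13 on both arrays, a value below the floor and exactly equal, as it was for 393 gene probe sets in all. The group II genes known from roots were thus higher or equal, and none of their differences exceeded 2 SDs.

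Group III differed little. XTH32, whose enzyme mainly hydrolyses xyloglucan rather than rejoining it, was the only lower XTH gene, with 8.12 in the triple and 8.27 in the double expressor, a difference of -0.15. XTH33, whose enzyme is anchored at the plasma membrane, was higher by 0.16, at 4.67 in the triple and 4.51 in the double expressor. XTH29 read 3.60 in the triple and 3.58 in the double expressor. All of these 3 differences lay within 1 SD, and the median was 0.02.

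**Figure D2:**
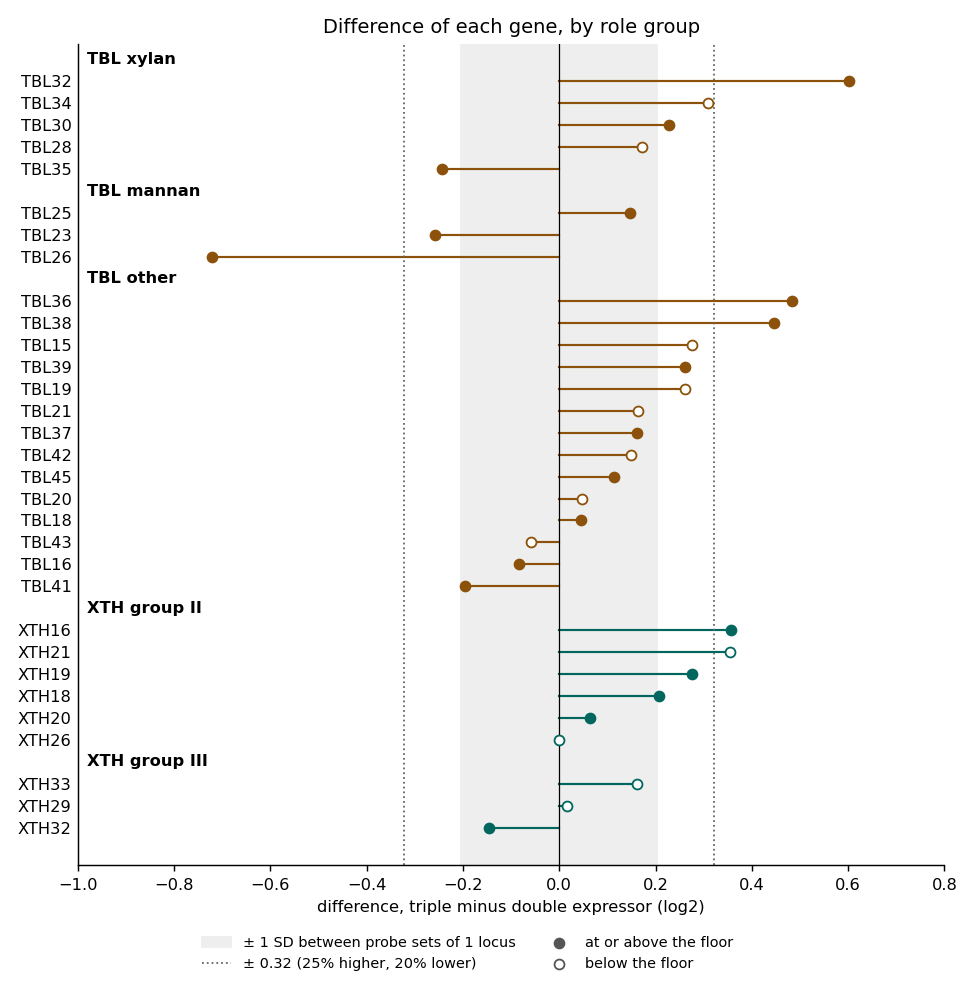
Difference of each gene (triple minus double expressor, log2, horizontal axis), sorted within role groups; filled points are at or above the floor, open points below it, the grey band is ± 1 SD between probe sets of a locus (0.20) and dotted lines mark a difference of 0.32 either way. TBL26 at -0.72 and TBL32 at 0.60 are the ends of the range, and no XTH gene lies to the left of -0.15.

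The families differed more at the ends of their ranges than in centre or quartiles. TBL differences had an SD of 0.29 between 22 genes and ran from -0.72 (TBL26) to 0.60 (TBL32, from the shared probe set). XTH differences had an SD of 0.17 between 9 genes and ran from -0.15 to 0.36. The SD over all loci was 0.22. The quartiles were -0.03 and 0.26 for TBL genes and 0.02 and 0.27 for XTH genes, against -0.14 and 0.13 for all loci.

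**Figure D3:**
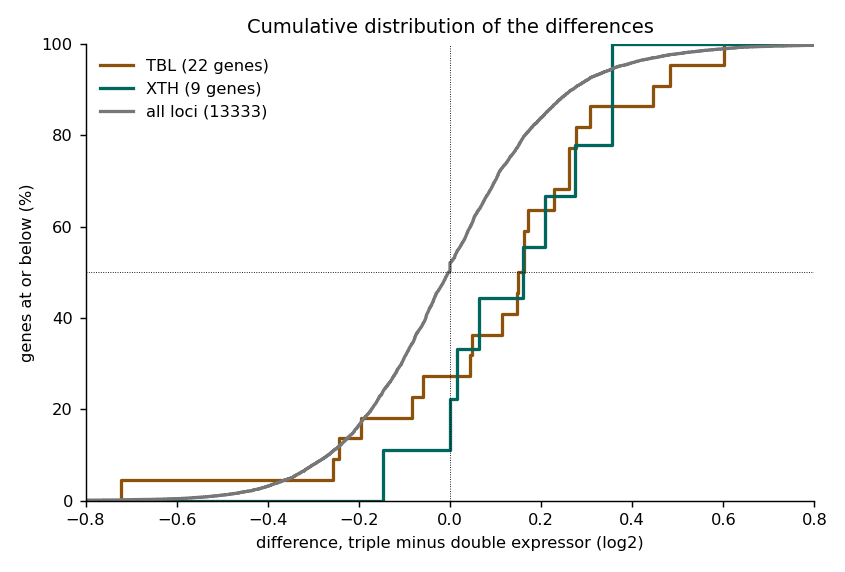
Share of genes at or below each difference (triple minus double expressor, log2) for TBL genes, XTH genes and all 13333 loci. The family curves cross 50% at 0.16 and the curve of all loci at -0.0034, and the TBL curve has the longer lower tail because of TBL26.

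Dim and bright probe sets were looked at apart, since RMA values of dim probe sets carry little signal. The floor was the 40th percentile of all values, 5.71, and a probe set passed where its brighter array reached it. At or above it, 9 of 14 TBL genes and 4 of 5 XTH genes were higher, against 52.9% of loci there, with medians of 0.13 and 0.21 against 0.02. Below it, 7 of 8 TBL genes and 3 of 4 XTH genes were higher, against 41.6% of loci there, with medians of 0.17 and 0.09 against -0.03. The dim TBL genes TBL15, TBL19, TBL20, TBL21, TBL28, TBL34 and TBL42 were the higher ones and TBL43 was lower. The dim XTH genes were XTH21, XTH26, XTH29 and XTH33. TBL32 passed the floor by its triple expressor reading alone.

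Position on the chromosomes was not used to choose the genes. There were 3 pairs of members that are next to each other among protein-coding genes, TBL28 with TBL30, TBL19 with TBL21, and XTH18 with XTH19. In each pair both genes were higher, and the gaps between their differences were 0.06, 0.10 and 0.07. Among 5849 pairs of neighbouring measured loci the median gap was 0.20, 26.7% had a gap no larger than 0.10, and both genes were higher in 24.4%. The families were chosen by their medians. Higher directions of members, in pairs or by chromosome, were therefore favoured by the choice and are no separate result. By chromosome, 7 of 8 TBL genes on chromosome 2 were higher, while the 3 on chromosome 4, TBL18, TBL23 and TBL26, held both of the lowest TBL differences. The 4 members on chromosome 1, TBL25, TBL38, TBL42 and XTH33, were all higher, by 0.15, 0.45, 0.15 and 0.16.

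Other wall genes on the arrays were counted from lists of the same pathways. Of 14 genes of xyloglucan synthesis 5 were measured, all of the CSLC family of xyloglucan backbone synthases, and 3 were higher and 2 lower with a median of 0.18. CSLC6 read 8.17 in the triple and 7.74 in the double expressor, 1.35-fold higher, and CSLC4, the best studied of these synthases, read 8.81 in the triple and 8.47 in the double expressor, 1.26-fold higher. CSLC12 differed by 0.18, CSLC5 by -0.02 and CSLC8 by -0.02. Of 18 xylan synthesis genes 4 were measured, with 1 higher and 3 lower and a median of -0.04. Among these IRX15L differed by 0.35, below the floor, and IRX10L, IRX15 and IRX10 by -0.08, -0.07 and -0.01. The 5 TBL genes that acetylate xylan had a median of 0.23, and the difference between these lists was not tested.

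Further values came from genes of the acetyl donor side, from TBR and from genes of wall loosening. AXY9, which is thought to act on the acetyl donor side of the pathway, was the only gene of 5 measured there and read 6.78 in the triple and 6.96 in the double expressor. TBR, the founding member of the TBL family, read 8.69 in the triple and 8.59 in the double expressor. Of 18 measured expansins, proteins that loosen the wall without cutting it, 13 were higher and 5 lower, against 47.9% and 50.2% of all loci. The median of the expansins was 0.16. At least 0.32 higher were 6 of them (6.83% of all loci), and 1 was at least 0.32 lower (6.49% of all loci). The expansins, like the other lists, were chosen with earlier results of these data known. Their counts are therefore no separate result. The expansins furthest apart were EXLA1 at 0.61, EXPA9 at 0.54, EXPA7 at 0.46 and EXPB2 at -0.43. None of the 10 cellulose synthases and none of the 3 xyloglucan trimming enzymes on the lists had a single-gene probe set here.

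Tissue markers were read on the same arrays, because several XTH genes are root genes and whole seedlings mix organs. All 3 measured root hair markers of 6 were higher, EXPA7, EXPA18 and PRX44 (AT4G26010), by 0.40 to 0.50. Of all loci, 6.83% were at least 0.32 higher. EXPA7 and EXPA18 are also counted among the expansins above. The root markers PYK10 and AT3G01190 were higher by 0.16 and 0.27. Of 5 green leaf markers 4 were higher and 1 lower, against 47.9% and 50.2% of all loci, with a range of -0.03 to 0.11. No xylem marker of 14 was measured. XTH26, known from root hairs, did not differ, at 4.13 on both arrays and below the floor. The part of a different share of root or root hair in the values of XTH18, XTH19, XTH20, XTH21 and XTH26 was not tested. In whole seedlings, more cells of a type and more RNA per cell cannot be told apart.

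**Figure D4:**
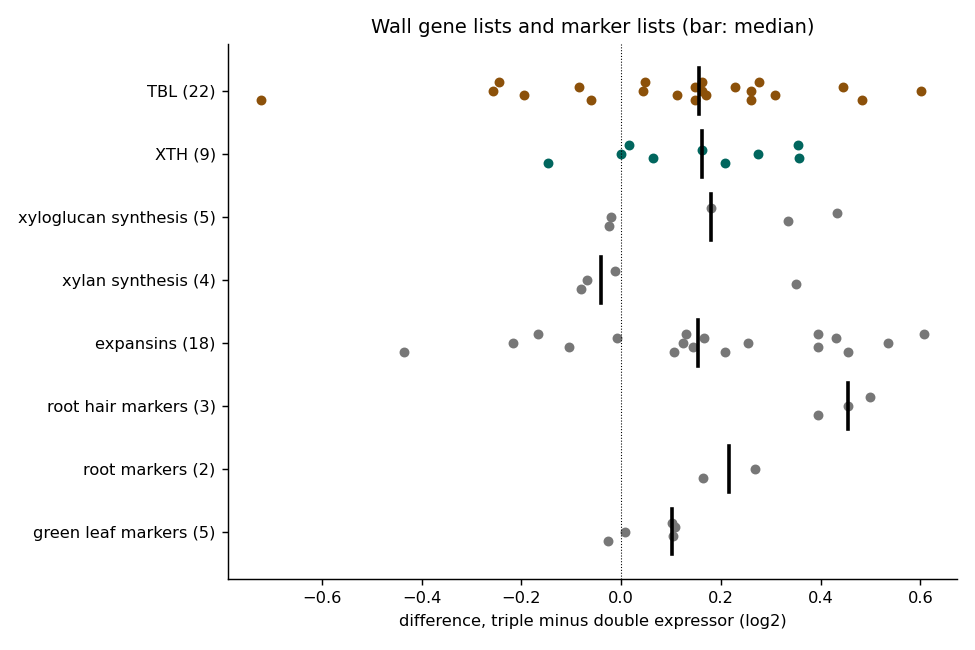
Difference (triple minus double expressor, log2, horizontal axis) of each measured gene of both families, the wall lists and the marker lists, with the number measured in brackets and a black bar at the median. Medians are 0.16 for TBL, XTH and expansin genes, 0.18 for xyloglucan synthesis, -0.04 for xylan synthesis and 0.46 for the root hair markers. EXPA7 and EXPA18 are drawn both as expansins and as root hair markers.

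The arrays themselves set the scale for shifts of this size. The values of 22746 gene probe sets correlated at r = 0.995 between the arrays, across probe sets, which are not replicates. The hybridisation controls, bacterial and phage RNAs that come from no plant, were higher on the triple expressor array in 15 of 18 probe sets, with differences between -0.12 and 0.37 around a median of 0.16. Several of these probe sets read the same RNA, so the 18 are not separate observations. The median of these controls is close to those of the TBL and XTH genes. The part of hybridisation in the family shifts was not tested. Gene families with symbols of letters and a number and at least 8 measured loci were ranked by median, 16 in all. The secreted peptide genes RALFL stood highest at 0.26, followed by XTH, then TBL, then the expansin genes EXPA at 0.14. TBL and XTH were chosen by their medians on these same arrays. Their high ranks were therefore favoured by the choice and are no separate result.

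**Figure D5:**
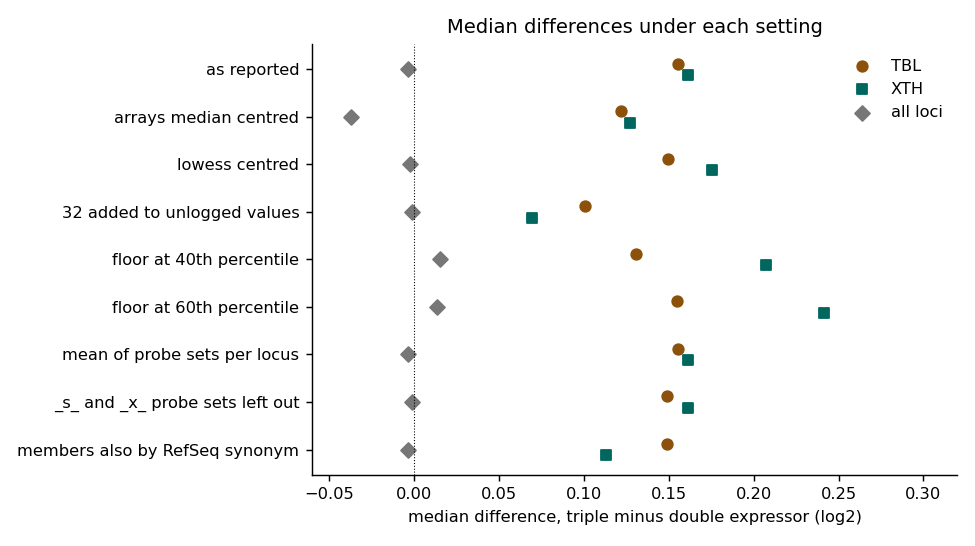
Median difference (triple minus double expressor, log2, horizontal axis) of TBL genes (circles), XTH genes (squares) and all loci (diamonds) under the reported setting and each alternative. Family medians lie to the right of that of all loci in each of the 9 rows, lowest for XTH at 0.07 with 32 added to the unlogged values.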

How the data were processed

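The authors deposited 1 table of log2 expression values for 22810 Affymetrix probe sets on 2 arrays, made with RMA per the submitters' processing notes (no source used here gives its version). The log2 scale was read from the values (2.39 to 14.3). RMA places the arrays on a common distribution, so a change shared by most genes is not seen. Genes were named from the platform annotation and RefSeq (TAIR10.1), which matched 13436 of 13513 single-gene probe sets, and 8730 gene probe sets stayed unnamed here. Differences are triple minus double expressor, with 1 probe set per locus. No model was fitted, since each genotype has 1 array. All 31 members are named, and up to 4 genes per pathway list by size of difference, or every measured gene of a short list. Members, lists and alternatives were chosen with earlier results of these data known, and neighbouring pairs and gene families by symbol after the values were seen. Alternatives were median and lowess centring (span 0.3), adding 32 to unlogged values, floors at the 40th and 60th percentile, the mean of probe sets per locus, leaving out probe sets marked for several transcripts, and members by synonym. The computation was checked on simulated arrays with known shifts added, under the reported setting and both centrings only. Computations ran in Python 3.11.15 (pandas 2.3.3, numpy 2.4.6, statsmodels 0.14.6, scipy 1.17.1), with plots by matplotlib 3.10.9.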

Additional observations from a re-analysis of the deposited data

How the results depend on the processing

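Over 9 alternatives the median difference ranged from 0.10 to 0.16 for TBL genes, from 0.07 to 0.24 for XTH genes and from 0.10 to 0.18 for both. Both lowest family medians, 0.10 and 0.07, came with 32 added to the unlogged values, which damps dim probe sets by construction and brought TBL32 to 0.40, and XTH16 to 0.31 and XTH21 to 0.14, both then under 0.32, leaving 4 members past it (4.31% of all loci). Median centring lowered every difference by 0.03 and left 16 of 22 TBL genes and 6 of 9 XTH genes higher, against 42.3% of all loci. XTH26 and XTH29 were then at -0.03 and -0.02. The floors keep fewer genes by construction. With the floor at the 40th percentile 4 of 5 XTH genes were higher, against 52.9% of loci there. At the 60th percentile 3 of 4 XTH genes and 7 of 8 TBL genes were higher, against 52.7% of loci there, and 1 TBL gene was lower. At that floor 3 of 12 members (10.7% of all loci there) were at least 0.32 apart in place of 6 of 31 (13.3% of all loci). TBL37 and TBL38 passed this floor of 7.17 by their triple expressor reading alone. TBL23, the lower gene, passed by its double expressor reading alone. A gene can thus pass through the array on which it is higher, so these counts are no separate check. At 1.5-fold 2 members were apart and at 2-fold 0. Each member has 1 single-gene probe set, so the mean per locus changed no member. Leaving out TBL26 and TBL32, chosen after seeing the data, left the TBL median at 0.16. Leaving out a replicate could not be done. No paired analysis was possible because the 2 arrays carry no replicate number and stand alone in their genotypes.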

Other observations

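Genes of both families that carry another symbol in the annotation add to the values above. EXGT-A3, also named XTH27, read 9.75 in the triple and 9.71 in the double expressor, a difference of 0.05. AT2G31110, also named TBL40, read 6.54 in the triple and 6.39 in the double expressor, a difference of 0.15. With these genes the medians were 0.15 over 23 TBL genes and 0.11 over 10 XTH genes.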
